A study of Rattus norvegicus with 26 samples.

Results

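Genes of red blood cells were followed in the dentate gyrus (DG), the granule cell region of the hippocampus, of 26 male F344 rats about 6 months of age, with 1 library per rat. The members were Hba-a2, Hbb, Alas2 and Slc4a1, found by gene name in the deposited values, with the rows of a gene ID summed. These 4 genes were among 17910 gene IDs, of which 15595 reached a mean of 5 normalized counts and were tested, all 4 included. Vehicle rats (Veh, n = 10) received the vehicle of the gavage and no Dox or ABT-263. Per the study's methods, the vehicle group also belonged to an ongoing study of senolytics in brain aging and cognitive decline. Dox rats (n = 8) received doxorubicin, an anthracycline used in chemotherapy, by injection in 4 weekly doses of 2 mg/kg, and Dox + ABT rats (n = 8) received the same doses together with ABT-263, a senolytic inhibitor of BCL-2 family proteins, by gavage at 12 mg/kg for 5 days in a row every other week. The drugs were given to the whole animal. The comparisons ask how the genes of red cells differ between vehicle, Dox and Dox + ABT, and whether these genes move together and with genes of the vessel wall.

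Hemoglobin carries oxygen as a tetramer of alpha and beta chains, each of which holds a heme group. Hba-a2 encodes an alpha chain and Hbb a beta chain. Alas2 encodes the erythroid form of aminolevulinate synthase, the first enzyme of heme synthesis, and Slc4a1 encodes band 3, the anion exchanger that also anchors the membrane skeleton of the red cell. Mature red cells have no nucleus and lose their RNA, while reticulocytes, the young red cells newly released from the bone marrow, still hold globin mRNA and other late erythroid messages. In brain tissue such RNA can come from blood left in the vessels, and low hemoglobin expression by neurons has also been described. After decapitation the whole brain was rinsed in cold saline, dissected and frozen, and the sources used here name no perfusion to flush blood out of the vessels. In bulk tissue, fewer cells of a type and less RNA per cell cannot be told apart.

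The promoters of the members are shown because the 4 genes rose and fell together across rats. RefSeq promoter sequences of the GRCr8 assembly were found for 3 of the 4 members, and Slc4a1 had none among them. Each sequence is the 250 bases before the annotated start of the gene, written 5′ to 3′ on the strand of the gene. Capitals mark AGATAA or the related form TGATAA, which are letters that GATA factors bind, the CACCC box that KLF1 binds, the motif CCAAT that NF-Y binds, and the TATA box searched as TATAAA. No motif overlaps another, all were searched on both strands, and a motif on the other strand appears as its reverse complement. The windows are chr10:15829139-15829388 (minus strand) for Hba-a2, chr1:167663722-167663971 (minus strand) for Hbb and chrX:22895200-22895449 (plus strand) for Alas2.
Hba-a2: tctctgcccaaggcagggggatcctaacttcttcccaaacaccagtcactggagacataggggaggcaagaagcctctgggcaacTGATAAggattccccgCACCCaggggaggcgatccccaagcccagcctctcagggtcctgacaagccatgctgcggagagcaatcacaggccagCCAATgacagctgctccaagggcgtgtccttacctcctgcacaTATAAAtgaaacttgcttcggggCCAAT
Hbb: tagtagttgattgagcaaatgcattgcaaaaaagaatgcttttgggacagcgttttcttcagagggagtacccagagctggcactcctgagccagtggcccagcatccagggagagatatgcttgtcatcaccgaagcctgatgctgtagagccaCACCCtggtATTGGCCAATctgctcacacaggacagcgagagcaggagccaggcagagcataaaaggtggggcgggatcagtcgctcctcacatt
Alas2: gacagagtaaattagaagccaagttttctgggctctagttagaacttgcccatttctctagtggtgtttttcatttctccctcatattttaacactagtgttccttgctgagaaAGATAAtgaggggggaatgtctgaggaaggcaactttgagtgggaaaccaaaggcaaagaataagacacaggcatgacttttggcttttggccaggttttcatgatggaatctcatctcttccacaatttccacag

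Counting back from the base just before the start as -1, the Hba-a2 window held TGATAA from -165 to -160, CACCC from -149 to -145, CCAAT from -71 to -67 and again from -5 to -1, and TATAAA from -28 to -23. In the Hbb window, CACCC lay from -95 to -91, with CCAAT from -81 to -77 and its reverse complement from -86 to -82. Alas2 held 1 of the motifs, AGATAA from -136 to -131. Over 33469 windows of the same length, 16.9% held one of the GATA motifs, 49.2% held CACCC, 34% held CCAAT and 12.9% held the TATA box. Compared position by position with no alignment, the windows of Hba-a2 and of its neighboring copy Hba-a1 were alike at 241 of 250 bases (96.4%). Those of Hbb and Hbb-bs were alike at 58 of 250 (23.2%). A shift between windows lowers this share. Both beta windows hold the same run of bases from a CCAAT on, starting at -81 in Hbb and -76 in Hbb-bs. The share of this pair therefore does not measure how related the windows are. Globin genes are a family of near copies, how reads were split between the copies was not tested, and the level of a single copy is therefore uncertain. These matches describe letters and do not show binding.

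The deposited values are read counts divided by a Median Ratio size factor, called normalized counts here, and the steps between low values put the depth at 10166200 to 24327800 reads per library. Once group means were removed, the leading principal component held 28.4% of the variance, and along it the libraries fell into 2 clusters, called kinds of library here. The first kind held 16 libraries, from 4 Veh, 5 Dox and 7 Dox + ABT rats. The second held 10, namely Veh 1, 2, 3, 4, 9 and 12, Dox 5, 7 and 14, and Dox + ABT 4. The kinds came from the data over many genes and from no label, so the levels, spread and correlations are also given with or within them. Granule cell genes fitted the labelled tissue, with Prox1 between 1680 and 3587 and C1ql2 between 3980 and 9272 normalized counts over the 26 rats.

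All 4 genes were highest in 2 Dox rats, Dox 5 and Dox 7, and Dox 1 and Dox 2 came next among the Dox rats. The other 4 Dox rats lay within the range of the Veh rats. Hba-a2 stood at 31916 normalized counts in Dox 5 and 42089 in Dox 7. It was 6856 in Dox 1, 7476 in Dox 2 and 3449 in Dox 14, and 919, 1083 and 921 in Dox 9, Dox 10 and Dox 13. The lower of the 2 highest rats was 4.27 times the next rat, Dox 2. In Veh, Hba-a2 ran from 624 to 6775 with a median of 3007, and in Dox + ABT from 705 to 2920 with a median of 1289. The 3 groups overlapped, and the lowest 3 Dox rats sat below the Veh median.

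Hbb was again highest in Dox 5 and Dox 7, followed by Dox 1 and Dox 2. Its level was 33551 in Dox 5 and 47294 in Dox 7, 12164 in Dox 1, 11781 in Dox 2, 7145 in Dox 14, 1650 in Dox 9, 1791 in Dox 10 and 1469 in Dox 13. Veh rats ranged from 899 to 10896 (median 5800) and Dox + ABT rats from 1729 to 5428 (median 2863). Dox 1, 2, 5 and 7 were therefore above every Veh rat, and the lowest Dox rat was above the lowest Veh rat.

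Alas2, the heme synthesis gene, reached 443 in Dox 5 and 953 in Dox 7, followed by 209 in Dox 1 and 151 in Dox 2. The values in Dox 14, Dox 9, Dox 10 and Dox 13 were 81.0, 35.2, 26.7 and 24.7. Alas2 lay between 16.3 and 109 in Veh (median 61.3) and between 23.3 and 70.1 in Dox + ABT (median 40.0). Again the 4 Dox rats with the most Alas2 exceeded every Veh and every Dox + ABT rat.

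Slc4a1, the membrane gene, separated Dox 5 and Dox 7 from the rest by the widest margin of the 4. It was 982 in Dox 5 and 1286 in Dox 7, and 30.4, 16.4, 4.89, 6.17, 2.15 and 6.37 in Dox 1, 2, 9, 10, 13 and 14. Veh rats held 0 to 42.9 (median 6.45), Veh 10 being listed at 0, and Dox + ABT rats held 3.21 to 16.5 (median 7.54). The level in Dox 5 was 22.9 times that of the highest of the other 24 rats, Veh 12. Those 24 rats rest on few reads, since their median was 6.89 normalized counts.

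**Figure D1:**
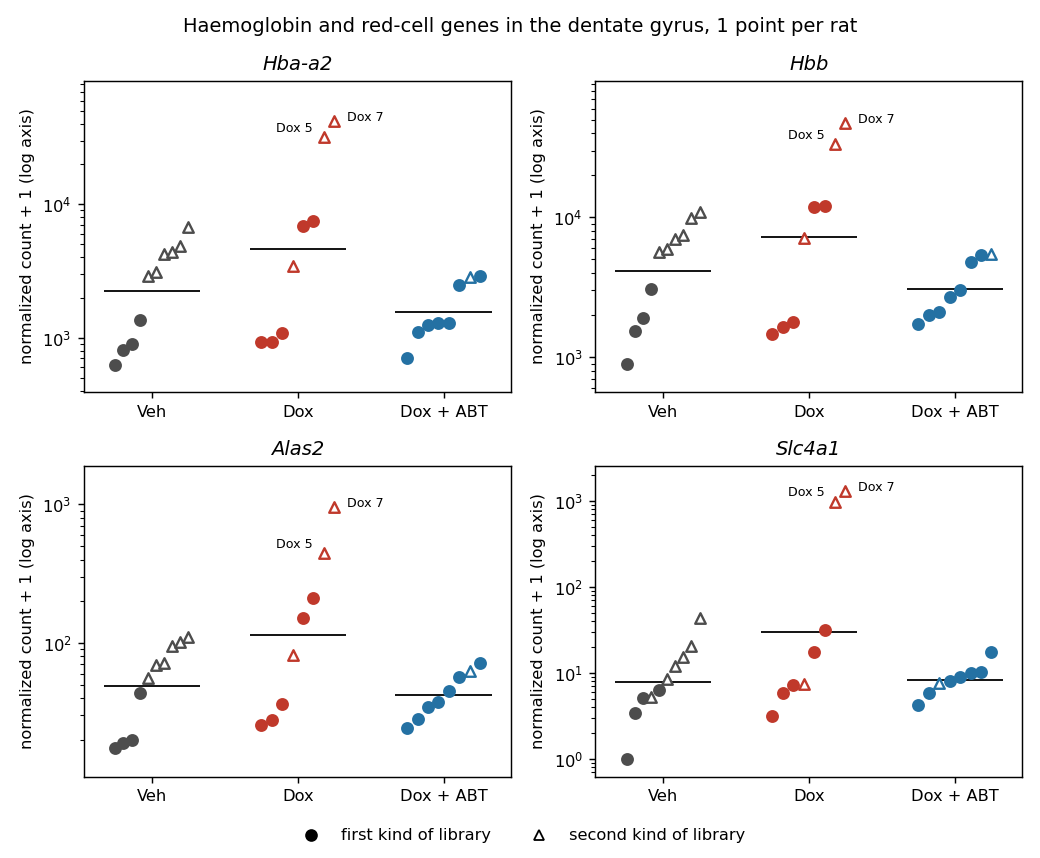
Normalized counts + 1 (log axis) of Hba-a2, Hbb, Alas2 and Slc4a1 in each rat by group, with circles for the first and open triangles for the second kind of library and lines at the mean on the log scale. Dox 5 and Dox 7 are the highest of the 26 rats for each gene, and for Slc4a1 they stand at 982 and 1286 against at most 42.9 elsewhere.

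Between Dox and Veh, none of the 4 genes passed p under 0.01 in limma with all rats, and the 4 estimates were positive. With sample weights (arrayWeights) those of Hba-a2, Hbb and Alas2 were negative, at -0.55, -0.71 and -0.046. The log2 differences, on the log2(normalized count + 1) scale, were 1.04 ± 0.64 (SE) for Hba-a2 (p = 0.116), 0.79 ± 0.59 for Hbb (p = 0.194), 1.21 ± 0.55 for Alas2 (p = 0.0372) and 1.95 ± 0.92 for Slc4a1 (p = 0.0423), with limma adjusted p-values from 0.464 to 0.638. Over all tested genes, 1.02% were called higher and 1.85% lower in this comparison. The median difference of the 4 members was 1.13, and that of all tested genes 0.00498. Without Dox 5 and Dox 7 the differences were 0.05, -0.04, 0.38 and 0.21 in the same order, and the limma p-values ran from 0.424 to 0.948, in a fit that called 3.19% of all tested genes higher and 4.08% lower.

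The kind of library moved with the members. Veh rats of the second kind held 2911 to 6775 normalized counts of Hba-a2, and Veh rats of the first kind 624 to 1367, with no overlap. For Hbb the 2 kinds of Veh rats were at 5642 to 10896 and 899 to 3080, and for Alas2 at 54.6 to 109 and 16.3 to 42.4, while the Slc4a1 values overlapped, at 4.25 to 42.9 and 0 to 5.30. As 6 of 10 Veh but 3 of 8 Dox and 1 of 8 Dox + ABT libraries were of the second kind, the differences from Veh were larger with the kind as a covariate. The difference between Dox and Veh was then 1.56 ± 0.46 (SE) for Hba-a2 (p = 0.0019), 1.27 ± 0.42 for Hbb (p = 0.00498), 1.63 ± 0.42 for Alas2 (p = 0.000574) and 2.53 ± 0.77 for Slc4a1 (p = 0.00264). All 4 were called at p under 0.01 in that fit, in which 1.07% of all tested genes were called higher and 1.63% lower, but the limma adjusted p-values were 0.134 to 0.299. These calls rested on Dox 5 and Dox 7: without them, and with the kind as a covariate, the differences were 0.77, 0.68, 0.94 and 0.70, with p = 0.0954, 0.131, 0.0323 and 0.240.

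**Figure D2:**
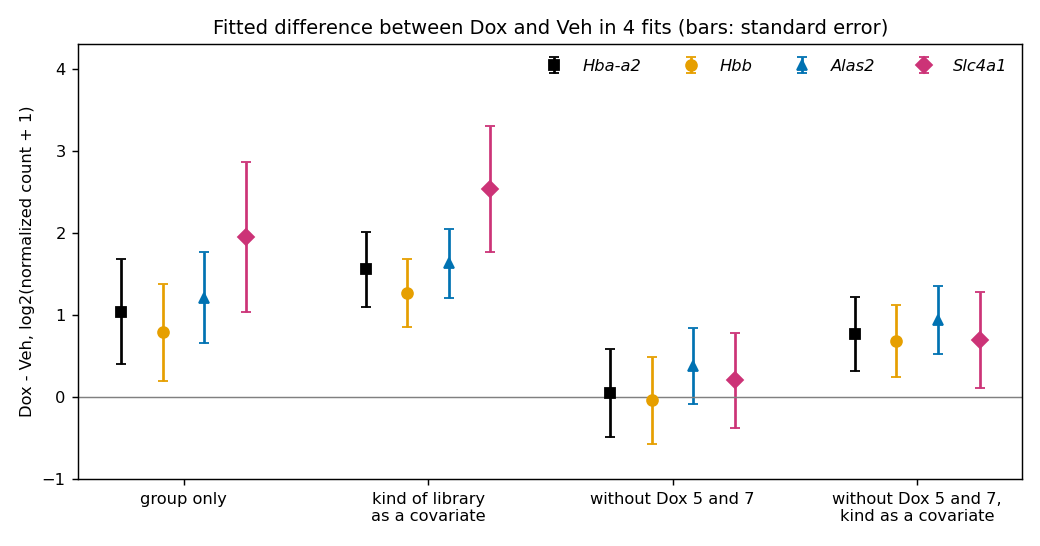
Difference between Dox and Veh in log2(normalized count + 1) with its standard error for the 4 genes (colors), in fits with the group alone, with library kind as a covariate, without Dox 5 and Dox 7, and with both changes. The estimates are highest with the kind as a covariate, at 1.27 to 2.53. Without Dox 5 and Dox 7 they lie between -0.04 and 0.38 with the group alone, and between 0.68 and 0.94 with both changes.

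Within the first kind of library, the 5 Dox rats exceeded the 4 Veh rats by 1.29 for Hba-a2 (limma p = 0.0348), 1.1 for Hbb (p = 0.0695), 1.40 for Alas2 (p = 0.0168) and 1.53 for Slc4a1 (p = 0.0282). Dox 1 and Dox 2 were the high Dox rats of this kind, and the other 3, at 919 to 1083 for Hba-a2, lay within the 4 Veh rats. Within the second kind, 3 Dox rats exceeded 6 Veh rats by 1.99, 1.57, 2.0 and 3.91 for Hba-a2, Hbb, Alas2 and Slc4a1 (limma p = 0.00603, 0.00462, 0.00346 and 0.0104), and Dox 5 and Dox 7 were 2 of these 3. That fit called 1.7% of all tested genes higher and 1.88% lower. The change between Dox and Veh did not differ detectably between the kinds (limma interaction p = 0.444, 0.576, 0.474 and 0.109).

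In Dox + ABT, no member passed the test against either other group. The differences from Veh were -0.54 ± 0.64 (SE) for Hba-a2, -0.43 ± 0.59 for Hbb, -0.22 ± 0.55 for Alas2 and 0.10 ± 0.92 for Slc4a1, with limma p from 0.406 to 0.911, in a comparison that called 3.89% of all tested genes higher and 3.95% lower. With library kind as a covariate these differences were 0.55, 0.58, 0.65 and 1.33 (p from 0.115 to 0.272), so the sign of the first 3 turned. Dox exceeded Dox + ABT by 1.59 ± 0.68 for Hba-a2 (p = 0.0267), 1.22 ± 0.63 for Hbb (p = 0.0615), 1.44 ± 0.59 for Alas2 (p = 0.0204) and 1.84 ± 0.97 for Slc4a1 (p = 0.0662), where 2.32% of all tested genes were called higher in Dox and 1.71% lower. They were 1.01, 0.69, 0.98 and 1.20 with library kind as a covariate (p from 0.0360 to 0.151), 0.61, 0.35, 0.61 and 0.14 in the first kind alone (p from 0.207 to 0.803), and 0.59, 0.39, 0.60 and 0.10 without Dox 5 and Dox 7 (p from 0.227 to 0.865). The comparisons share their groups, so the 3 sets of values are not independent of each other.

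The spread between rats was wider in Dox than in Dox + ABT. The mean distance of a rat from the median of its group, in log2 units, was 1.80 ± 1.08 (SD, n = 8) for Dox, 1.0 ± 0.77 (n = 10) for Veh and 0.56 ± 0.53 (n = 8) for Dox + ABT in the case of Hba-a2. For Alas2 these distances were 1.58 ± 0.92, 0.84 ± 0.66 and 0.46 ± 0.26, and for Slc4a1 2.43 ± 2.63, 1.13 ± 0.93 and 0.42 ± 0.40. Of 12 two-sided exact permutation tests, 2 passed an adjusted p of 0.05, both between Dox and Dox + ABT: Alas2 (p = 0.00591, adjusted p = 0.0457) and Slc4a1 (p = 0.00761, adjusted p = 0.0457). For Hba-a2 and Hbb the exact permutation test gave adjusted p = 0.0578 and 0.0653 between these groups, and Dox and Veh differed by 0.65 to 1.3 with adjusted p from 0.121 to 0.213. Leaving out any 1 of the 16 rats of these groups ended both calls, and within the first kind of library the distances differed by 0.68 for Alas2 and 0.52 for Slc4a1, with an adjusted p of 0.632 in both exact permutation tests.

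Ratios between the members within a library do not depend on how libraries are scaled. The ratio of Hba-a2 to Hbb was 0.547 ± 0.0781 (SD, n = 10) for Veh rats, 0.664 ± 0.166 (n = 8) for Dox rats and 0.506 ± 0.0730 (n = 8) for Dox + ABT rats. It was 0.951 in Dox 5 and 0.890 in Dox 7, above the 0.408 to 0.695 of the other 24 rats. Counting the 2 alpha genes together against the 3 beta genes together, Dox 5 and Dox 7 were at 1.35 and 1.35 and inside the range of the others, 0.730 to 1.37.

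Alas2 kept pace with Hba-a2. Per 1000 normalized counts of Hba-a2 it amounted to 21.7 ± 4.65 (SD, n = 10) in the Veh group, to 25.1 ± 7.21 (n = 8) in Dox and to 27.2 ± 6.25 (n = 8) in the Dox + ABT group. Dox 7, at 22.6, lay inside and Dox 5, at 13.9, just below the 14.8 to 38.3 of the other 24 rats. Libraries of the second kind held 13.9 to 23.5 per 1000 and those of the first kind 19.0 to 38.3.

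Slc4a1 did not keep pace. It stood at 30.8 per 1000 of Hba-a2 in Dox 5 and 30.6 in Dox 7, and at 0 to 8.85 in the other 24 rats, with group means of 3.52 ± 2.58 (SD, n = 10) for Veh, 10.4 ± 12.6 (n = 8) for Dox and 4.95 ± 1.51 (n = 8) for Dox + ABT. Dox 1 and Dox 2, the next highest rats in Hba-a2, held 4.43 and 2.20 per 1000 and were inside that range. Differences between groups in the log2 ratios of the 4 pairs did not pass in any of 12 two-sided exact permutation tests (adjusted p from 0.190 to 0.639). The lowest exact permutation p was 0.0159, for Hba-a2 to Hbb between Dox and Dox + ABT, a log2 difference of 0.37, which was 0.20 without Dox 5 and Dox 7 (p = 0.0719).

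**Figure D3:**
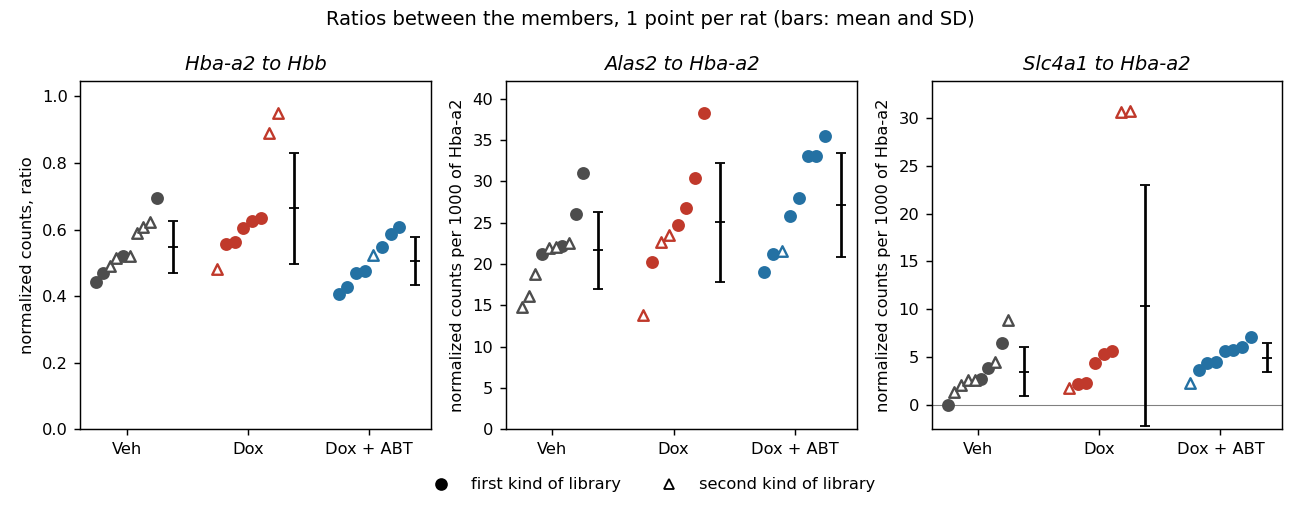
Ratios of normalized counts in each rat by group, with Hba-a2 to Hbb, Alas2 per 1000 Hba-a2 and Slc4a1 per 1000 Hba-a2 on the vertical axes, circles and open triangles for the first and second kind of library, and bars for the group mean and SD. Dox 5 and Dox 7 are at 30.8 and 30.6 Slc4a1 per 1000 Hba-a2 against at most 8.85 in the other rats, while for Alas2 they are at 13.9 and 22.6.

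The other erythroid globin genes behaved like the members. Hba-a1, Hbb-bs and LOC100134871 passed the filter, and Hbq1b, a theta-like alpha globin, lay below it. Hba-a1 was 25759 in Dox 5 and 38215 in Dox 7, with 715 to 9707 in the other 24 rats. Hbb-bs was 3815 and 5514, against 64.9 to 1136, and LOC100134871 was 5228 and 6854, against 68.5 to 1401. None of the 3 passed in the comparison of Dox with Veh (log2 differences of 0.90 to 1.03, limma p from 0.129 to 0.186). Together the 5 globin genes made up 0.669% of all normalized counts in Dox 5, 0.830% in Dox 7 and 0.0155% to 0.198% in each other rat. Ngb and Cygb, globins of neurons and of fibroblast-like cells, did not follow: Ngb was 53.0 in Dox 5 and 94.2 in Dox 7 against 44.8 to 93.6 in the others, and Cygb was 427 and 482 against 413 to 831.

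In Dox 5 and Dox 7, the libraries with the most Hba-a2, further genes of late erythroid cells stood above every other rat. Because these 2 rats were picked for their values, the following is a description with no test. Ahsp, the chaperone of free alpha globin, was 89.2 in Dox 5 and 154 in Dox 7, and at most 5.50 in the other 24 rats. Hemgn, a nuclear regulator of erythroid differentiation, was 58.4 and 69.1 against at most 6.64. Per 1000 of Hba-a2, Ahsp was 2.79 and 3.67, against a median of 0.392 and a range of 0 to 4.66 in the other rats, whose top values rest on a few reads.

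Several genes of the red-cell membrane stood apart in the same way. Rhd, the Rhesus blood group antigen, was 105 and 135 in Dox 5 and Dox 7 and at most 11.7 elsewhere. Aqp1, a water channel of red cells and of the choroid plexus, was 161 and 230 against 3.30 to 27.1, and Epb42, which ties band 3 to the skeleton, was 36.1 and 42.6 against 2.35 to 14.6. Kel, a blood group protein, was 33.1 and 42.6, and at most 5.69 in the other rats. Ank1, Sptb, Add2 and Dmtn, membrane skeleton genes that neurons also express, were within the range of the other rats in both.

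Among genes of heme supply and of reticulocyte maturation with a level in every rat, few stood apart, and those by less. Of 14 heme synthesis genes, 1 had Dox 5 and Dox 7 as its 2 highest rats. In Dox 5, Slc25a38, Ppox and Tmem14c were below the range of the other rats. Fech, which inserts iron to complete heme, was 693 and 982 against 409 to 594, and Bnip3l, which clears mitochondria from reticulocytes, was 5815 and 4039 against 1678 to 3234. Gata1, the erythroid transcription factor, was under the filter on low values, at 12.9 and 18.2 and at no more than 1.52 in any other rat. Of the regulators that passed the filter, Klf1 was 62.3 and 79.6 against 12.3 to 58.1, while Epor, the erythropoietin receptor, at 5.38 and 6.28, lay under the others' median of 9.57, and Tal1, at 17.7 and 39.1, lay within their range of 15.4 to 61.9. Hbq1b was 15.4 and 27.2, and at most 3.22 elsewhere. Tfrc, the transferrin receptor, at 724 and 634, and Alas1, the housekeeping form of the synthase, at 596 and 749, did not exceed the other rats, whose ranges were 246 to 1091 and 708 to 1091, and Alas1 in Dox 5 was below its range. Slc25a37, the mitochondrial iron importer of erythroid cells, was 45.3 in Dox 5, inside the others' range of 13.5 to 54.2, and 72.6 in Dox 7, above it.

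**Figure D4:**
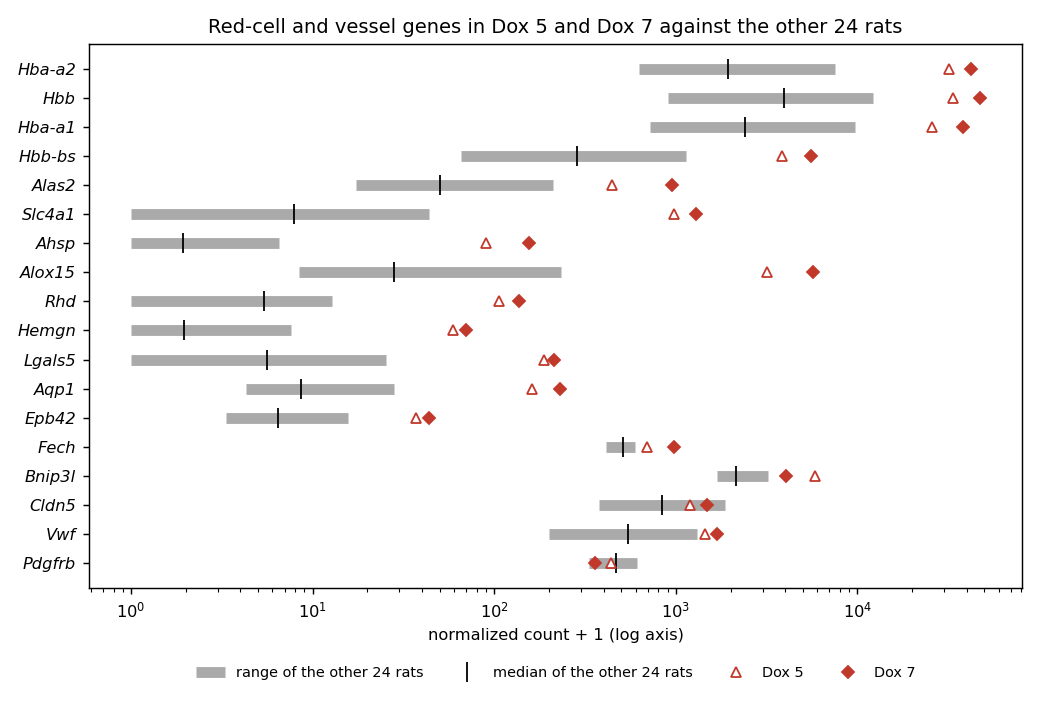
Normalized counts + 1 (log axis) of red-cell genes, from Hba-a2 to Bnip3l, and of the vessel genes Cldn5, Vwf and Pdgfrb in Dox 5 (open triangles) and Dox 7 (diamonds), with gray bars for the range and ticks for the median of the other 24 rats. The red-cell genes of both rats lie outside the bars, by 22.9 times for Slc4a1 and 1.17 times for Fech, and so does Vwf, by 1.11 times, while Cldn5 and Pdgfrb lie inside.

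Rhd, Ahsp and Hemgn reached the filter of a mean of 5 only through Dox 5 and Dox 7, so the lists were counted over genes that reached it in the other 24 rats. Dox 5 and Dox 7 were the 2 highest rats for 3 of 3 such other globins, 4 of 15 membrane genes (26.7%) and 2 of 12 regulators and maturation genes (16.7%). The same held for 660 of all 15553 such genes (4.24%), for 1 of 14 genes of heme synthesis, for 2 of 27 endothelial genes and for 0 of 8 genes of heme breakdown and hemoglobin clearance. In the last list, Hmox1, the heme oxygenase induced by heme, was 83.8 and 102 against 70.1 to 120, and Cd163, the macrophage receptor for hemoglobin bound to haptoglobin, was 7.69 and 22.3 against 4.29 to 25.8.

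In the comparison of Dox with Veh over all rats, few genes of the erythroid lists were called at p under 0.01. Of the heme synthesis and import genes, 1 of 14 was higher, Slc25a37, by 0.58 ± 0.20 (SE) on the log2 scale (p = 0.00752, limma adjusted p = 0.317), and none was lower. None of the 16 membrane genes, the 14 regulators and maturation genes, the 3 other globins or the 8 clearance genes was called in either direction. The smallest p in these lists were those of Ahsp (2.01 ± 0.78), Rhd (1.45 ± 0.63), Hbb-bs (1.03 ± 0.66, p = 0.129) and Blvrb (-0.16 ± 0.11, p = 0.155), a biliverdin reductase. Ahsp and Rhd passed the filter only through Dox 5 and Dox 7, so their differences are given with no p. The median differences were 0.08 for the membrane list, 0.02 for the regulators and 0.04 for heme synthesis. Against Veh, Dox + ABT had 1 lower gene in the heme synthesis list, 1 in the clearance list and 1 in each direction among the regulators, and Dox against Dox + ABT had 1 in each direction among the regulators and none in the other erythroid lists. With 3.89% higher and 3.95% lower over all tested genes in the first of these comparisons, and 2.32% and 1.71% in the second, single genes in lists of 8 to 16 are near the background.

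Few markers of white blood cells could be read. Of 19 white-cell genes listed, 8 were in the files and 2 passed the filter. S100a8 and S100a9, the calprotectin genes of neutrophils, were 3.84 and 3.07 in Dox 5 and 7.68 and 6.98 in Dox 7, with at most 5.31 and 3.46 in the other rats. Lcn2 and Mpo were listed at 0 in both, and Csf3r, the receptor for granulocyte colony-stimulating factor, was 24.6 and 44.0 against 9.39 to 81.3. Cd3e, a chain of the T cell receptor complex, was 118 and 72.6, within the 0 to 149 of the others and above their median of 33.6. Outside the list, Cd52, a surface glycoprotein of leukocytes picked on its values, was 60.7 and 90.8 against at most 16.1. Csf3r was lower in Dox than in Veh (-0.93 ± 0.27, limma p = 0.00197, adjusted p = 0.212).

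The platelet list was highest in sum in Dox 5 and Dox 7, but its genes differed. The 6 tested platelet genes summed to 119 normalized counts in Dox 5 and 114 in Dox 7, and to 32.3 to 85.0 in the other 24 rats. Pf4, a chemokine of platelet granules, was 13.8 and 24.4 against 0 to 10.7, and Clec1b, a platelet receptor under the filter, was 4.61 and 6.98 against 0 to 3.46. Pf4 and Itgb3 reached the filter only through Dox 5 and Dox 7, and none of the other 4 genes had these rats as its 2 highest. Gp1bb made up 67.2 of the sum in Dox 5, Itga2b was 13.8 and 35.6 against 10.4 to 37.0, and Gp1ba was 6.92 and 6.98 against 0.883 to 14.2. The part of platelets in the levels of the members was not tested.

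Vessel genes did not move with the members in proportion. The 27 tested endothelial genes summed to 9150 in Dox 5 and 9759 in Dox 7, within the 4457 to 12023 of the other rats, and the 13 genes of pericytes and smooth muscle summed to 2451 and 2290, within 1678 to 3281. Vwf, stored in endothelial cells and in platelets, was 1451 and 1675, above the others' maximum of 1309, and Kdr, a receptor for vascular endothelial growth factor, was 165 and 162 against 42.9 to 158. Between Dox and Veh, 2 of 27 endothelial genes were called higher and 4 lower, where 1.02% and 1.85% of all tested genes were. The 3 with the smallest p were Kdr (0.81 ± 0.21, p = 0.000538), Itm2a (-0.75 ± 0.19, p = 0.000552) and Slco1a4, an organic anion transporter (-0.96 ± 0.27, p = 0.0011), with limma adjusted p-values of 0.140 to 0.170. The mural list had 1 of 13 genes lower, Vtn (-0.70 ± 0.18, limma p = 0.000487), and the list of choroid plexus and meninges 1 of 8, Lum (-0.90 ± 0.26, limma p = 0.00151).

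Across the 26 rats, the members rose and fell together within groups. The 26 correlations of a fixed family, taken over deviations from group means, were tested by permutation with 100000 draws, and those of the 6 member pairs ran from 0.846 (Hbb with Slc4a1) to 0.988 (Hba-a2 with Hbb). For Hba-a2 with Hbb, Spearman's rho was 0.974, and for Hba-a2 with Alas2 Pearson's r was 0.977 and rho 0.952. All 6 had p = 1e-05, the smallest these permutations can give, and an adjusted p of 4.33e-05. Within the 16 libraries of the first kind the 6 values of r were 0.744 to 0.979 (adjusted permutation p from 0.00052 to 0.0321), and within the 10 of the second kind 0.929 to 0.990 (adjusted permutation p from 0.0052 to 0.0783). Hba-a2 with Slc4a1 in the second kind, with the last value, was the pair that missed an adjusted p of 0.05. Leaving out the 2 rats farthest from the median gave 0.782 to 0.986 over all rats, 0.619 to 0.960 in the first kind and 0.738 to 0.956 in the second. The values of a library share its depth and scaling.

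Endothelial genes showed no detectable relation to the members. The mean log2 level of the 27 genes correlated with Hba-a2 at r = 0.233 (rho = 0.188, permutation p = 0.209, adjusted p = 0.259) over all rats, at -0.199 (permutation p = 0.350) within the first kind and at 0.0956 (permutation p = 0.598) within the second. For Hbb, Alas2 and Slc4a1 the pooled r was 0.185, 0.275 and 0.282, with adjusted permutation p from 0.141 to 0.396. Without the 2 rats farthest from the median of Hba-a2, Dox 5 and Dox 7, r was 0.130. Genes of pericytes and smooth muscle gave r from 0.120 to 0.207 over all rats (adjusted permutation p from 0.396 to 0.593) and -0.508 to -0.248 within the first kind, where the permutation p ran from 0.0778 to 0.407.

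**Figure D5:**
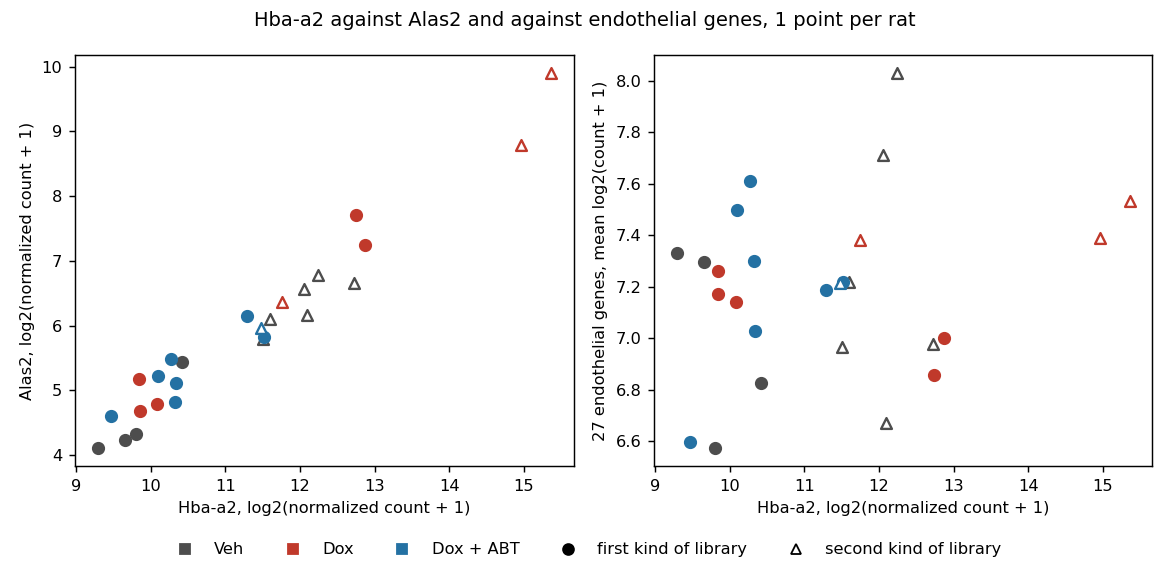
Alas2 (left) and the mean of 27 endothelial genes (right) against Hba-a2, each as log2(normalized count + 1), with colors for the groups and circles and open triangles for the first and second kind of library. Alas2 rises with Hba-a2 over the whole range (r = 0.977 of deviations from group means), and the endothelial mean shows no such line (r = 0.233).

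The platelet list, Pf4 and Itgb3 included, correlated with each member over all rats (r from 0.713 to 0.777, adjusted permutation p from 0.000111 to 0.00205), but within the first kind r was 0.308 to 0.441 and within the second 0.760 to 0.837, and neither kind passed for any member (permutation p from 0.0704 to 0.259). The list of choroid plexus and meninges gave r from 0.418 to 0.457 (adjusted permutation p from 0.0172 to 0.0310), 0.521 to 0.685 within the first kind (adjusted permutation p from 0.0162 to 0.0676) and 0.684 to 0.800 within the second (adjusted permutation p from 0.0208 to 0.150). That relation held for deviations from group means only: over values as they stood r was 0.139 to 0.167. For the 2 tested white-cell genes r was 0.339 to 0.449, with adjusted permutation p from 0.0667 to 0.169.

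The 10 genes with levels most like those of Hba-a2, by Pearson's r of log2(normalized count + 1) over the 26 rats, were led by the other globins: Hba-a1 (0.994), Hbb-bs (0.991), Hbb (0.988) and LOC100134871 (0.987). Alas2 came next with 0.976. Then followed Ybx3, a nucleic acid binding protein (0.908), Lgals5, a galectin of rat reticulocytes (0.903), Slc4a1 (0.892), Rhd (0.867) and Gpr22, an orphan receptor (0.866). Ybx3 stood at 1214 in Dox 5 and 1636 in Dox 7 against 331 to 578 in the other rats, Lgals5 at 187 and 212 against at most 24.3, and Gpr22 at 1823 and 1517 against 669 to 1276. Without Dox 5 and Dox 7, the 4 globins and Alas2 kept the first 5 places with r from 0.955 to 0.991, and Ybx3 was in place 7 (r = 0.873), while Lgals5 was in place 90 (0.786), Slc4a1 in 132 (0.771) and Rhd in 483 (0.693).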

How the data were processed

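RNA from the DG of 1 hemisphere per rat was poly-A selected and sequenced on an Ion platform. The deposited values are a normalized signal: per the labels and the study's methods, the authors aligned reads to rn6 with STAR 2.5.3a in Partek Flow, estimated counts per row and divided them by Median Ratio factors. They tested genes with DESeq2 at p under 0.01 after a filter at a mean of 5. Whole reads (tolerance 0.02) came out for 75.5% to 78.8% of low values of genes with 1 row, which is too few to rebuild raw counts, and a count test was not used.

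From these values, rows were summed by gene ID (2 rows for Slc4a1), and 15595 genes with a mean of at least 5 were tested with limma 3.58.1 (R 4.3.3, variance trend) on log2(value + 1), with 26 rats in 1 fit of 3 groups, two-sided, called at p under 0.01, with Benjamini-Hochberg adjustment over all tested genes beside it. A fold on this scale understates changes of low genes. Ratios and distances from the group median were compared by exact permutation tests and correlations by 100000 permutations within groups. The fit was tested on simulated data. Groups and replicate numbers came from the labels; p-values measure the spread between rats. The members, the lists and the test of spread were chosen with earlier results of these data known. Named genes were the 4 members, the 3 genes of each list with the smallest p between Dox and Veh, and the 10 most like Hba-a2; genes described in Dox 5 and Dox 7 and the blood-cell markers named by value were chosen after their values were seen. Listed genes with no row were not analysed here. Alternatives were pseudocounts, filters, scalings, fit settings, the kind of library, the replicate number as a block, transcript rows and leaving out each rat; those without Dox 5 and Dox 7, and weights with the kind as a covariate, were added after seeing the data. Promoters came from RefSeq (GRCr8), of another build than the files. Figures used Python 3.11.15 and matplotlib 3.10.9.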

Additional observations from a re-analysis of the deposited data

How the results depend on the processing

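Differences below are on the log2 scale. Between Dox and Veh, sample weights (arrayWeights) turned the sign of Hba-a2 (-0.55), Hbb (-0.71) and Alas2 (-0.046), and leaving out Dox 5 and Dox 7 that of Hbb (-0.035). Values that passed p under 0.01 there were 1.56, 1.27, 1.63 and 2.53 for Hba-a2, Hbb, Alas2 and Slc4a1 with the kind as a covariate, 1.99, 1.57 and 2.0 for Hba-a2, Hbb and Alas2 in the second kind alone, and 1.17 for Alas2 with weights and the kind. Dox + ABT minus Veh turned positive for Hba-a2, Hbb and Alas2 with the kind as a covariate (0.55, 0.58 and 0.65), in the first kind alone (0.68, 0.75 and 0.79), with the kind and without Dox 5 and Dox 7 (0.25, 0.36 and 0.39) and with weights and the kind (0.65, 0.74 and 0.84). For Slc4a1 it turned negative with pseudocount 5 (-0.058), weights (-0.36), the replicate block (-0.36) and its second transcript row alone (-0.26). Hbb in Dox minus Dox + ABT was -0.053 with weights and the kind. The causes were not tested.

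The replicate number as a block (replicate block) raised Alas2 in Dox minus Dox + ABT to 1.86 (limma p = 0.00535) and changed no other call of the members' levels. Over 16 pairs of rats with the same number, deviations correlated at -0.2225 to 0.442 (median -0.01251), with 6 over 0.1. Only group means were removed, so the kind of library also enters these values. They cannot decide whether rats with the same number share more than the number.

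Counts of called list genes between Dox and Veh moved with the kind as a covariate to 3 for other globins, 0 for heme synthesis, 1 for membrane and 1 for regulators (1.07% of all tested genes higher and 1.63% lower), and without Dox 5 and Dox 7 to 0 for heme synthesis, 1 for membrane, 3 for regulators and 2 for choroid plexus and meninges (3.19% higher and 4.08% lower).

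Among ratios in Dox minus Dox + ABT, Alas2 to Hba-a2, Slc4a1 to Hba-a2 and Alas2 to Slc4a1 changed sign in the first kind alone (0.0029, -0.46 and 0.47) and without Dox 5 and Dox 7 (0.0067, -0.49 and 0.50), as did Alas2 to Slc4a1 in Dox minus Veh without them (0.17). The spread of Alas2 (1.12) and Slc4a1 (2.04) lost its call with pseudocount 0.5, and in the first kind alone (0.68 and 0.52), where Dox + ABT minus Veh turned to 0.15 for Hba-a2 and 0.066 for Alas2. Without Dox 5 and Dox 7 the spread of Slc4a1 was 0.40 against Dox + ABT and -0.31 against Veh, while Hbb passed at 0.76.

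Correlations with choroid plexus and meninges missed an adjusted p of 0.05 on values as they stood (0.14, 0.17, 0.14 and 0.16 for Hba-a2, Hbb, Alas2 and Slc4a1) and without Dox 5 and Dox 7 for Hba-a2 (0.43) and Hbb (0.39). With group and kind means removed, r was -0.062 and -0.14 for Hba-a2 and Hbb with endothelial genes. It was -0.29, -0.30, -0.12 and -0.11 for the 4 members with mural genes. Platelet genes then gave 0.47 with Alas2 and 0.48 with Slc4a1, and white-cell genes passed for Slc4a1 (0.62). Without Dox 5 and Dox 7, mural genes gave -0.0096 and -0.0046 with Hba-a2 and Hbb, and platelet genes 0.41 with Slc4a1.

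Leaving out 1 rat gave ranges of 1.13 to 1.92 for Hba-a2 and 1.0 to 1.74 for Alas2 in Dox minus Dox + ABT, which passed without Dox 9, 10 or 13, and of 0.78 to 1.52 for Alas2 in Dox minus Veh, which passed without Dox 13. Slc4a1 in Dox + ABT minus Veh ran from -0.23 to 0.38, negative without Veh 5, Veh 10 or Dox + ABT 1. The ratio of Slc4a1 to Hba-a2 in Dox minus Dox + ABT ran from -0.062 to 0.49, negative without Dox 5 or Dox 7, and that of Alas2 to Slc4a1 from -0.63 to 0.031, positive without Dox 5. The spread differences ran from 0.84 to 1.22 for Alas2 and 1.29 to 2.17 for Slc4a1, and no rat of either group could be left out with the call kept. Correlations with white-cell genes ran from 0.32 to 0.55, 0.31 to 0.54, 0.27 to 0.52 and 0.40 to 0.57 for Hba-a2, Hbb, Alas2 and Slc4a1, and passed without Dox 10, and for Slc4a1 also without Veh 9. Those with choroid plexus and meninges ran from 0.40 to 0.59, 0.38 to 0.61 and 0.35 to 0.47 for Hba-a2, Hbb and Slc4a1, and each was lost without Veh 10 or Dox 7, that of Hba-a2 also without Dox 9, and that of Hbb also without Dox 9, Dox 13, Dox + ABT 3 or Dox + ABT 12.

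No call or sign changed in 495 of 535 alternative values for levels, 350 of 360 for ratios, 319 of 360 for spread and 746 of 780 for correlations. Low genes such as Slc4a1 rest on few reads in most rats.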

Other observations

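Alox15, which encodes the lipoxygenase that reticulocytes use to break down their mitochondria, belonged to no list and was picked once its values were known. It was 3158 normalized counts in Dox 5 and 5706 in Dox 7, and 7.44 to 232 in the other 24 rats, with Dox 1 the highest of these. Its fitted difference between Dox and Veh, 2.30 ± 0.84 (SE) on the log2 scale, was the largest increase among the 15595 tested genes, at a limma p of 0.0105 (adjusted p = 0.354), and it was 0.66 without Dox 5 and Dox 7 (p = 0.189). Per 1000 normalized counts of Hba-a2 it stood at 99.0 in Dox 5 and 136 in Dox 7, against 5.20 to 39.7 over the other 24 rats, among which Dox 1 was at 33.9 and Dox 2 at 25.

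In all, 23 tested genes were higher in both Dox 5 and Dox 7 than in any other rat by over 1 on the log2 scale. Besides the genes named so far, these were Rsad2, an antiviral gene induced by interferon, at 170 and 336 against at most 46.2, and Knop1, RGD1309350, Tent5c, Abca4, LOC103692716 and AABR07065531.13. The next 2 rats in Hba-a2, Dox 1 and Dox 2, differed from these in other genes: Lcn2, an iron-binding protein of neutrophils and of reactive astrocytes, was 23.7 and 32.9 there and at most 4.72 in each other rat, and Mfsd2a, the lipid transporter of brain endothelium, was 1117 and 1241. These genes too were picked on their values.

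Ratios between copies of the globin genes also differed in Dox 5 and Dox 7. Hbb-bs stood at 114 and 117 per 1000 of Hbb, against 58.0 to 93.4 in the other 24 rats, and LOC100134871 at 156 and 145 against 59.3 to 126, while Hba-a1 stood at 807 and 908 per 1000 of Hba-a2 against 947 to 1396. How reads were split between copies was not tested.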
